A study of Rattus norvegicus with 24 samples.

Results

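The SLC25 family holds the carriers that move metabolites across the mitochondrial inner membrane. In these kidneys 41 genes with a rat symbol of the form Slc25a followed by a number were listed, and the 37 of them that reached 10 or more estimated counts in at least 6 of the 24 samples were taken as members. They were 37 of 17334 genes in all, the choice used no treatment effect, and all 37 passed the filter on low counts under which 12778 genes were tested. The other 4, Slc25a18, Slc25a41, Slc25a47 and Slc25a54, reached 10 counts in no sample. Members that share sequence with processed pseudogenes are uncertain, since reads of such copies can be split between them: the rat assembly GRCr8 lists 9 pseudogenes named for Slc25a5, 8 for Slc25a39 and 2 for Slc25a3.

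Carriers of this family are small proteins made of repeated units that pass through the inner membrane, and most exchange one substrate for another. They feed ATP synthesis with ADP and phosphate, pass citric acid cycle acids between matrix and cytosol, and bring in the cofactors and amino acids that matrix enzymes need. The proximal tubule of the kidney is densely packed with mitochondria and draws most of its ATP from fatty acid oxidation. In tissue pieces, fewer cells of a type and less RNA per cell cannot be told apart.

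RNA was taken from left kidneys of male rats of the PKD/Mhm (Cy/+) strain when they were 8 months old, with 6 animals in each of 4 groups. Every animal, controls included, carried the Cy allele of Anks6 in heterozygous form, and no rat without cysts was among the samples, so the levels describe cystic kidney only. The Ctrl rats were left untreated. The ipABCB5 and ivABCB5 rats received human skin-derived ABCB5+ cells by the intraperitoneal or the intravenous route, monthly for 6 months. The CoCM rats received the conditioned medium of such cells grown together with stimulated THP-1 macrophages on the same schedule, and the route of the medium is given as intravenous in the study's methods and as intraperitoneal in its design text. Kidneys were frozen before the animals were perfused, so blood was in the tissue, and Ctrl animals carry numbers 1 to 24 and treated animals 26 to 43, so whatever the numbering follows and treatment cannot be told apart. Libraries held 9304630 to 14125457 estimated counts.

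Animals 36 and 37 (ivABCB5), 38 (ipABCB5) and 39 (CoCM) stood apart from the rest of the libraries before any result on the carriers. On the first principal component of all tested genes, which held 56.31% of the variance, they scored 87.1, 86.3, 80.83 and 97.42, whereas the other 20 animals lay between -53.01 and 11.53. The summed level of the 5 late proximal tubule markers was 16470 CPM (counts relative to library size) in animal 36, 18840 in animal 37, 6960 in animal 38 and 11520 in animal 39, against 769.9 to 8484 in the other 20, so animal 38 lay inside that range. The summed level of the 8 injured tubule markers went the other way, with 1217, 1235, 904.8 and 747 CPM against 8586 to 16400. In such sums the highest genes weigh most, and single markers are not given. None of these markers was listed at 0 in all animals. Group comparisons below are followed by the values without these animals where a named fold change or a count could rest on them.

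Carriers of adenine nucleotides and phosphate made up most of the family's transcripts. In TPM, a scale relative to both transcript length and library size on which genes can be compared, the 37 members summed to a mean of 4099 per animal, and Slc25a5, Slc25a3 and Slc25a4 together held 59.2% of that sum. Slc25a5 and Slc25a4 are adenine nucleotide translocases, which exchange cytosolic ADP for matrix ATP, and Slc25a3 is the phosphate carrier. Slc25a5 was the highest member at a mean level of 1347 TPM, with a range of 914.1 to 2122 over the 24 animals. Slc25a3 followed at 678.6 TPM (562.3 to 983.4) and Slc25a4 at 402.6 TPM (359.4 to 477.1). The order was the same within nearly every kidney: Slc25a5 was above Slc25a3 in 24 of 24 animals, Slc25a3 was above Slc25a4 in 24 of 24, and Slc25a4 was above Slc25a39, the next member, in 22 of 24.

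The ATP-Mg/phosphate carriers of this role class, which calcium activates and which adjust the adenine nucleotide content of the matrix, were lower and more variable. Slc25a23 had a mean level of 121.0 TPM, Slc25a25 of 42.14 TPM and Slc25a24 of 20.74 TPM. All 6 members of the class summed to 2612 TPM, or 63.73% of the family.

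Carriers of citric acid cycle acids ranked second, with 13.25% of the family's TPM over 4 members. Slc25a11, the oxoglutarate carrier of the malate-aspartate shuttle, had a mean level of 247.3 TPM (169.6 to 414.2). Slc25a10, the dicarboxylate carrier, had 194.9 TPM (98.45 to 386.9), and Slc25a11 was above it in 24 of 24 animals. Slc25a1, the citrate carrier, had 98.54 TPM, whereas Slc25a21, which carries oxoadipate and related oxodicarboxylates, was among the lowest members at 2.256 TPM.

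Carriers of iron and glutathione held 9.81% of the family's TPM. Slc25a39, a glutathione carrier, came next after Slc25a4 at 300.5 TPM (213.3 to 499.8), and its relative Slc25a40 had 7.150 TPM. Slc25a28 and Slc25a37 are the mitoferrins, which bring iron into the matrix for heme and iron-sulfur clusters. Slc25a28 had a mean level of 84.75 TPM and Slc25a37, the form known from developing red cells, 9.736 TPM.

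The other classes were lower. Nucleotide and cofactor carriers held 5.049% over 8 members, led by Slc25a17, the peroxisomal carrier of coenzyme A and related cofactors, at 62.40 TPM (53.07 to 72.44). Slc25a51, which brings NAD+ into the matrix, had 39.24 TPM. Carriers of carnitine and other amino acids held 4.29% over 6 members, led by Slc25a20, the carnitine-acylcarnitine carrier of fatty acid oxidation, at 59.49 TPM and Slc25a38, the glycine carrier of heme synthesis, at 52.56 TPM. Among the uncoupling-protein-like members, Slc25a30 had 35.50 TPM, Slc25a14 had 7.988 TPM and Slc25a27 was the lowest member of all at 0.8476 TPM. Slc25a22, a glutamate carrier, stood alone in its class at 12.92 TPM, and Slc25a53, an orphan member, had 1.640 TPM and a count of 0 in animals 36, 37 and 38.

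**Figure D1:**
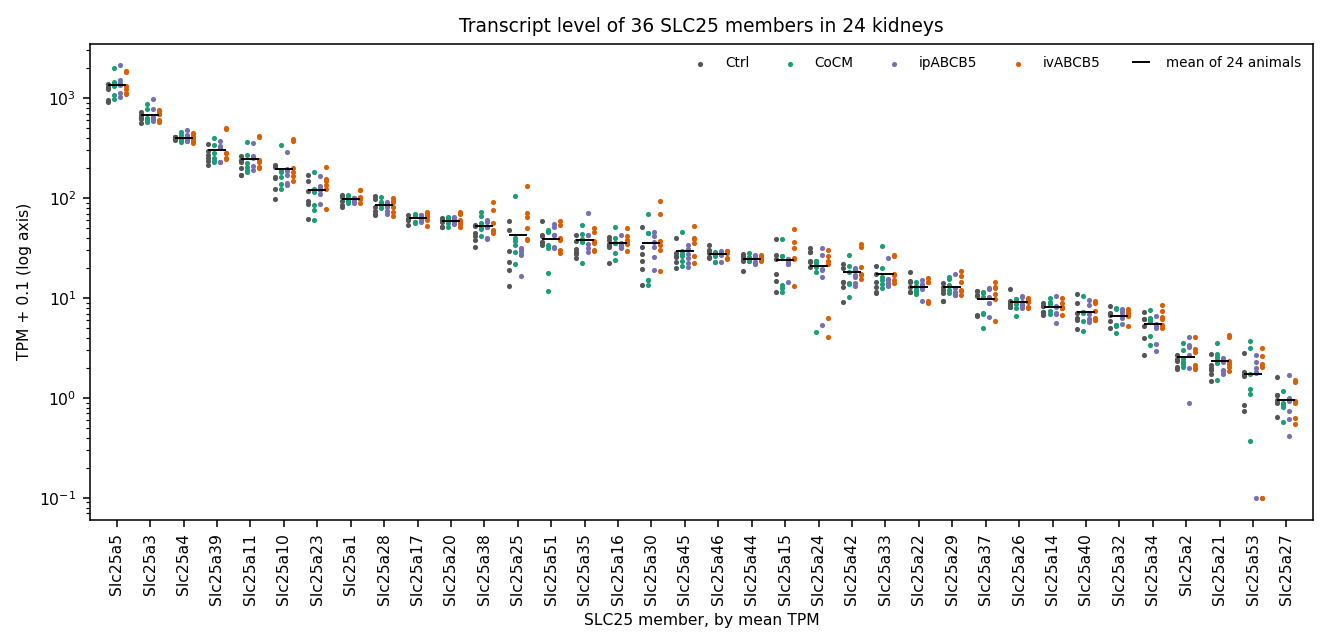
Level of each of 36 members in TPM + 0.1 on a log axis, ordered by mean TPM, with 1 point per animal coloured by group and a dash at the mean of the 24 animals. The groups overlap for the members, except that Slc25a25 spans 16.47 to 31.4 TPM in ipABCB5 and 38.24 to 132.0 TPM in ivABCB5. The mean level falls from 1347 TPM for Slc25a5 to 0.8476 TPM for Slc25a27.

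A single promoter sequence was given by RefSeq (GRCr8) for 31 of the 37 members, each running from 250 bases before the annotated start to 50 after it. The CCAAT box, a motif of many promoters that nuclear factor Y binds, was the letters CCAAT or, on the other strand, ATTGG. It was present in 18 of the 31, or 58.1%, against 37.3% of the promoters of 9907 tested genes. The motif TCAAGGTCA, which estrogen-related receptors bind, was in 0 of the 31 (0.212% of all) and GCATGCGC, the core of the motif of nuclear respiratory factor NRF1, also in 0 (4.61% of all). A match is a description of the letters only. The 60-base windows below are shown because they hold the nearest match upstream of the start in those of the 10 members with the highest TPM that had one. Each is written 5′ to 3′ on the gene's strand, and capitals mark the CCAAT box in either orientation.

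Slc25a4 (chr16:52805407-52805466, + strand): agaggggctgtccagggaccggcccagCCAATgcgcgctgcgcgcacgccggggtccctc
Slc25a11 (chr10:55859123-55859182, - strand): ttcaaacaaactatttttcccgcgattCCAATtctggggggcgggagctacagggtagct
Slc25a10 (chr10:106264290-106264349, + strand): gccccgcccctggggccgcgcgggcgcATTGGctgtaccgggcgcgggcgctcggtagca
Slc25a23 (chr9:1985542-1985601, - strand): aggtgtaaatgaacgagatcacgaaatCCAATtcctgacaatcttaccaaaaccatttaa
Slc25a1 (chr11:96559876-96559935, + strand): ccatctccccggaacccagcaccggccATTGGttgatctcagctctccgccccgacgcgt
Slc25a28 (chr1:252491353-252491412, - strand): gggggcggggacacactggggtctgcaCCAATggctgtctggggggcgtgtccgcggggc
Slc25a17 (chr7:114767206-114767265, - strand): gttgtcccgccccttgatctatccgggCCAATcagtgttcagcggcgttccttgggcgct

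Upstream of the annotated start, the box began 43 bases away in Slc25a28, 75 in Slc25a17, 79 in Slc25a10, 87 in Slc25a4 and 95 in Slc25a11. In Slc25a1 it began 151 and in Slc25a23 209 bases away.

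Members differed widely in how much they varied between animals. The SD of log2 CPM over the 24 animals, with CPM scaled by TMM factors, had a median of 0.432 over the members and 0.303 over all tested genes. Slc25a53 varied most, with an SD of 0.97, but its counts of 0 to 19 leave it the least precise. Slc25a25 followed with an SD of 0.86, Slc25a30, first described as a kidney mitochondrial carrier, with 0.82, Slc25a24 with 0.79 and Slc25a15, the ornithine carrier of the urea cycle, with 0.63. At the other end, Slc25a46, an outer membrane member that takes part in mitochondrial fission and fusion, had an SD of 0.14, as close to constant as Slc25a22 and Slc25a44, the branched-chain amino acid carrier, both at 0.15.

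Animals 36 to 39 were the 4 highest of all 24 for 19 of the 37 members on log2 CPM, or 51.4%, where the same held for 10.03% of all tested genes. They were the 4 lowest for 2 members, Slc25a24 and Slc25a53, where the same held for 14.2% of all tested genes. With CPM scaled by the library total alone they were the 4 lowest for 3 members (22.5% of all genes), and in TPM for 3 (22.8%). The count of members with them as the 4 highest depended more on the scaling, which was compared after the data were seen. It was 19 members (9.26% of all genes) with median-ratio factors, 8 (3.76%) with CPM scaled by the library total alone and 9 (3.55%) in TPM, and TMM factors of these animals lay between 0.8101 and 0.9006 against 0.9741 to 1.11 in the other 20. The 19 members came from 7 of the 8 role classes and included 4 of the 6 adenine nucleotide and phosphate carriers and 3 of the 4 carriers of citric acid cycle acids.

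Among these were carriers with high levels. Slc25a10 was at 585.5 CPM in animal 36, 643.0 in animal 37, 458.5 in animal 38 and 518.5 in animal 39, whereas the other 20 ranged from 142.3 to 286.3 CPM. For Slc25a5 the 4 animals had 1656, 1824, 1955 and 1745 CPM against 664.8 to 1288 in the others. For Slc25a11 they had 268.4, 303.1, 242.6 and 236.4 CPM against 88.26 to 160.1. All 4 animals were thus above the highest of the other 20 for each of these carriers.

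Slc25a24 went the opposite way. Its level was 17.57 CPM in animal 36, 12.92 in animal 37, 15.75 in animal 38 and 12.75 in animal 39, and 44.01 to 79.22 CPM in the other 20. The closely related Slc25a23 was at 216.5, 178.8, 184.8 and 191.9 CPM in the same animals against 60.85 to 153.8 CPM. With TMM or median-ratio factors the pair thus stood at opposite ends of the range in the same kidneys. Slc25a24 was also lowest in these animals in TPM and with CPM scaled by the library total alone, but Slc25a23 was not highest there. In TPM Slc25a23 was at 149.6 in animal 37 and at 171.4 in Ctrl animal 24.

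The animals differed among themselves for other members. Slc25a25 was at 342.7 CPM in animal 36, 272.5 in animal 39 and 188.1 in animal 37, all above the 27.01 to 155.9 CPM of the other 20, but at 80.43 CPM in animal 38, inside that range. Slc25a28 stood inside the range of the others in all 4, at 78.15, 96.38, 91.93 and 93.66 CPM against 69.15 to 105.3. The ornithine carriers differed too: Slc25a2 was at 0.7268 CPM in animal 38, the lowest of the 24, while Slc25a15 was at 19.26 CPM there, inside the 7.621 to 24.59 CPM of the other 20.

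Lists of other mitochondrial genes were placed on the same log2 CPM, where 10.03% of all tested genes had these animals as the 4 highest. Other scalings were not counted for these lists. Of 78 nuclear genes taken by symbol pattern and called respiratory chain subunits here, 49 had animals 36 to 39 as the 4 highest, or 62.8%. The patterns were not limited to subunits and also took in Ndufs6-ps1, a pseudogene symbol, and Atp5if1. The same held for 7 of 18 genes of other mitochondrial membrane transport, such as Mpc1 and Mpc2 of the pyruvate carrier, for 4 of 13 genes of carrier import, such as Timm22, and for 3 of 10 regulators of mitochondrial genes, Esrra, Tfam and Ppargc1b. Of 3 carriers of the same family under other symbols, the uncoupling protein Ucp2 had these animals as the 4 lowest, at 74.26 to 91.45 CPM, and Mtch2, an outer membrane member, had them as the 4 highest, at 233.7 to 270.6 CPM. Markers of some other cells moved with these animals: fibroblast and myofibroblast markers summed to 368 to 697.6 CPM in them against 858 to 3671 in the others, macrophage markers to 28.11 to 81.23 against 145.3 to 413, and early proximal tubule markers to 6620 to 11200 against 1684 to 6056. T and B lymphocyte markers summed to 1.821 to 4.926 against 18.43 to 64.62. Sums of endothelial, erythroid, podocyte, adipocyte, muscle, thick ascending limb, distal convoluted tubule, principal and intercalated cell markers overlapped between these animals and the others. The part of tissue composition in the carriers' levels was not tested.

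**Figure D2:**
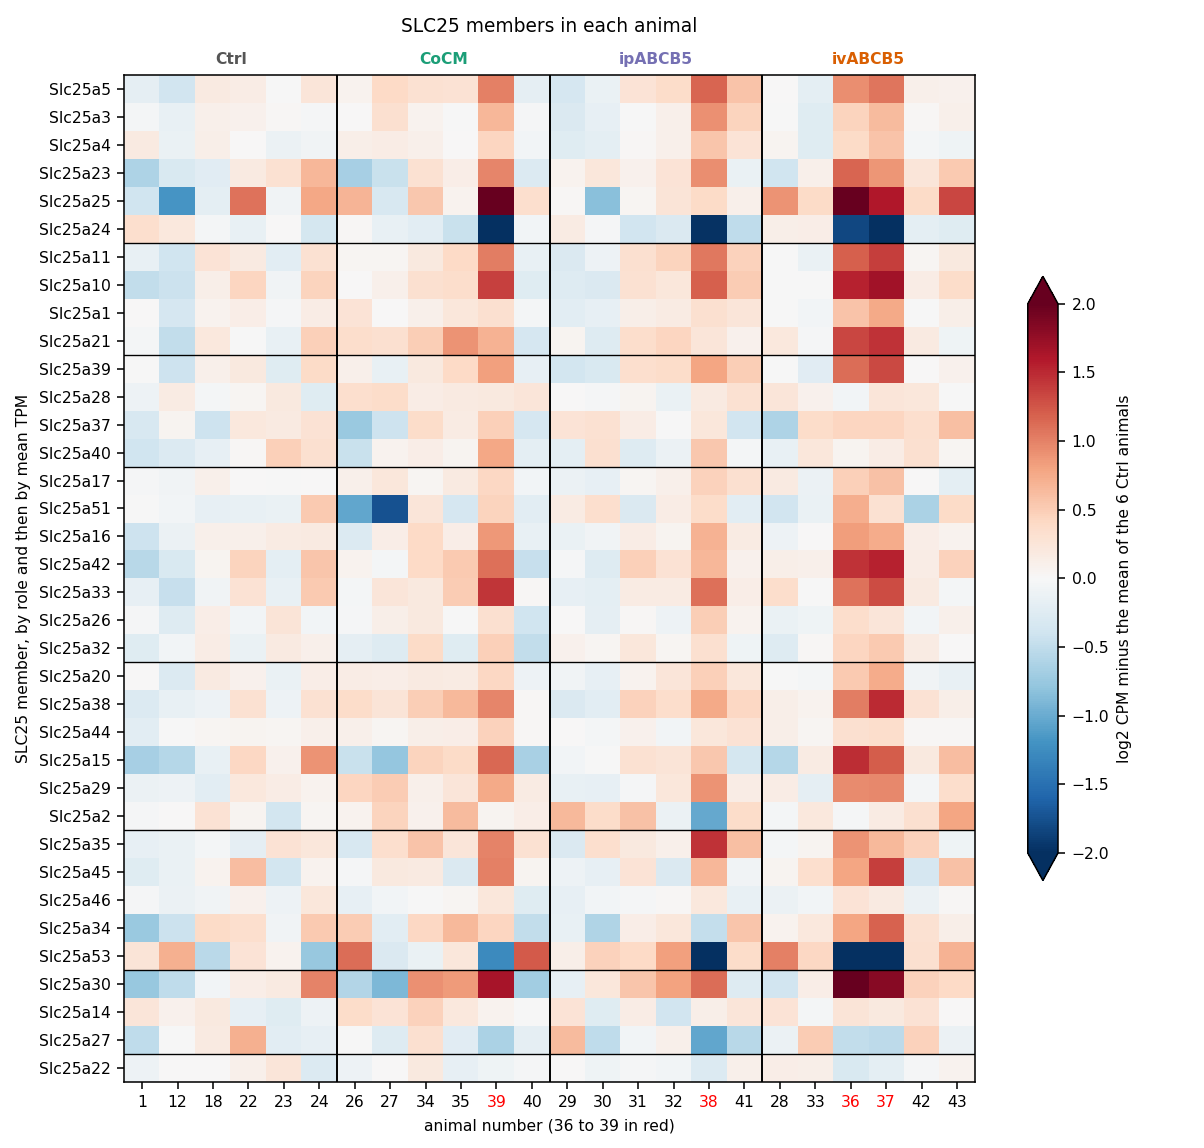
Log2 CPM of 36 members in each of the 24 animals minus the mean of the 6 Ctrl animals, with members grouped by role between horizontal lines and animals by group between vertical lines; red is higher and blue lower, and the scale ends at 2. The columns of animals 36, 37, 38 and 39 are red for most members, and Slc25a24 and Slc25a53 are blue in them.

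Expression of the carriers was then compared between groups, to ask whether either cell route or the conditioned medium changed it. No member passed an adjusted p of 0.05 in edgeR's quasi-likelihood test in any of the 4 comparisons, nor in the test for any difference between the 4 groups. The 3 comparisons with Ctrl share the same 6 control animals and are not independent of each other. Over all 12778 genes the adjusted threshold was passed by 0.00783% in CoCM against Ctrl, and by 0% in ipABCB5 against Ctrl, 0% in ivABCB5 against Ctrl, 0% in ipABCB5 against ivABCB5 and 0% in the test for any difference. DESeq2 and limma on log2(TPM + 1) also called 0 of the members in each. The edgeR p-values set the difference between groups against the spread between animals within groups, estimated over the 4 groups together and with information from other genes.

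Most members had log2 fold changes above 0 in the treated groups, and without animals 36 to 39 fewer did. In CoCM against Ctrl 30 of the 37 had a log2 fold change above 0, with a median of 0.21. In ipABCB5 it was 31 of 37 with a median of 0.12, and in ivABCB5 34 of 37 with a median of 0.28. Over all tested genes 51.41%, 51.01% and 52.57% were above 0 in these comparisons, with medians of 0.0088, 0.0037 and 0.013. Without animals 36 to 39 the members' medians were 0.07, 0.04 and 0.07, with 25, 27 and 24 members above 0, and 49.27%, 50.14% and 48.37% of all genes were above 0. Leaving out animal 39 alone took the CoCM median to 0.08, and leaving out animal 38 alone took the ipABCB5 median to 0.04. For ipABCB5 against ivABCB5 the median was -0.13 with 33 members below 0, and without these animals it was 0.01 with 20 members above 0, so the direction did not hold.

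In CoCM against Ctrl 1 of 37 members, Slc25a28, had an unadjusted p under 0.05, where 11.9% of all genes did, 5.96% higher and 5.96% lower. There were 3 without animals 36 to 39, Slc25a28, Slc25a38 and Slc25a29, where 2167 of 12771 genes did. The level of Slc25a28 was 69.15, 81.34 and 93.14 CPM (lowest, median, highest) in Ctrl and 90.82, 94.89 and 105.3 CPM in CoCM. In CPM all 6 CoCM animals were above the Ctrl mean, and the groups overlapped at the edge, where Ctrl animals 12 and 23 lay above the lowest CoCM animal. In TPM the overlap was wider, at 67.62 to 103.9 in Ctrl (mean 82.52) and 79.92 to 101.8 in CoCM. The log2 fold change of the mitoferrin was 0.24 ± 0.08 (SE, n = 6 per group; edgeR adjusted p = 0.319, two-sided exact permutation p on log2 CPM = 0.0108), and 0.24 without animals 36 to 39. Under the other alternatives run it was 0.14 at its lowest. The 4 erythroid markers summed to 384.3 to 1895 CPM in CoCM and 209.5 to 5303 CPM in Ctrl, the highest being animal 1, so the ranges overlapped.

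The glycine carrier Slc25a38 came second. It ranged from 39.40 to 59.15 CPM in Ctrl with a median of 44.37, and from 48.39 to 93.66 CPM in CoCM with a median of 64.23. The log2 fold change was 0.48 ± 0.24 (SE; edgeR adjusted p = 0.427, exact permutation p = 0.0173), and 0.35 without animals 36 to 39. Slc25a29, a carrier of basic amino acids, had 0.38 ± 0.20 (adjusted p = 0.446 in edgeR), and 0.28 without these animals. Slc25a14 had 0.23 ± 0.13 and Slc25a44 0.15 ± 0.09, and without them 0.25 and 0.07. Groups without overlap on log2 CPM made up 1.38% of all genes in this comparison and 0 of the 37 members.

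Slc25a51 had its lowest values of the series in CoCM. It was at 18.67 CPM in animal 27 and 30.58 CPM in animal 26, while the other 22 animals of the series lay between 40.74 and 104.8 CPM. CoCM animals 35 at 49.7 CPM and 40 at 54.22 CPM were also below the lowest Ctrl animal at 55.98 CPM. Animals 34 at 74.74 CPM and 39 at 86.15 CPM lay inside the Ctrl range. The log2 fold change of this NAD+ carrier was -0.29 in CoCM against Ctrl and did not pass the test, and it was -0.51 without animals 36 to 39.

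In ipABCB5 against Ctrl 0 of 37 members had an unadjusted p under 0.05, where 1.77% of all genes did, 1.26% higher and 0.509% lower. There was 1 without animals 36 to 39, Slc25a2, named after its value was seen, where 178 of 12771 genes did. Slc25a2 is a low member, with a lowest count of 6. With all animals the smallest p belonged to Slc25a35, an orphan carrier, with 31.71, 33.66 and 43.59 CPM in Ctrl and 29.26, 42.96 and 98.11 CPM in ipABCB5. Its log2 fold change was 0.50 ± 0.24 (SE; edgeR adjusted p = 0.978, exact permutation p = 0.130). The highest value was animal 38, and without that animal the fold change was 0.21. Slc25a5 had 664.8, 918.6 and 1029 CPM in Ctrl and 687.8, 1089 and 1955 CPM in ipABCB5, with a log2 fold change of 0.39 ± 0.25, and 0.17 without animal 38. Slc25a11 had 0.36 ± 0.27 and Slc25a3 had 0.22 ± 0.18, and without animal 38 these were 0.17 and 0.04. Groups without overlap made up 0.0470% of all genes and 0 of the members.

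In ivABCB5 against Ctrl 7 of 37 members had an unadjusted p under 0.05, all higher in ivABCB5, where 5.78% of all genes did, 4.44% higher and 1.34% lower. Without animals 36 to 39 the count was 0, where 152 of 12771 genes had an unadjusted p under 0.05. The share of all genes is not given for the counts that follow, which describe the members only. The count was 1 without animal 36 alone and 1 without animal 37 alone, and 14, 12 and 11 without animal 28, 33 or 42. Among the controls it was 4, 3 and 4 without animal 1, 12 or 23. By DESeq2 it was 9, and by limma on log2(TPM + 1) 3.

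Slc25a25 had the smallest p of these. It was at 27.01, 56.07 and 131.5 CPM (lowest, median, highest) in Ctrl and at 80.16, 135.6 and 342.7 CPM in ivABCB5. All 6 ivABCB5 animals were above the Ctrl mean of 70.45 CPM, while Ctrl animals 22 and 24 lay among the ivABCB5 values. The log2 fold change was 1.19 ± 0.43 (SE; edgeR adjusted p = 0.673, exact permutation p = 0.0325). It was 0.61 without animals 36 to 39, and 0.81 without animal 36 alone.

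Slc25a42, a coenzyme A carrier, was at 19.66, 27.75 and 42.63 CPM in Ctrl and at 31.27, 36.01 and 84.67 CPM in ivABCB5, with a log2 fold change of 0.72 ± 0.29. Slc25a38 was at 39.40, 44.37 and 59.15 CPM in Ctrl and at 49.89, 55.12 and 134.2 CPM in ivABCB5, with 0.61 ± 0.24. Slc25a10 was at 142.3, 204.0 and 273.7 CPM in Ctrl and at 198.8, 240.4 and 643.0 CPM in ivABCB5, with 0.76 ± 0.34. For these 3 carriers animals 36 and 37 held the 2 highest ivABCB5 values, and without animals 36 to 39 the fold changes were 0.16, 0.13 and 0.08. Slc25a21 had 0.65 ± 0.27, and 0.04 without them. The remaining 2, chosen for naming after their values were seen, were Slc25a29 at 0.43 ± 0.20 and Slc25a45, an orphan member, at 0.54 ± 0.25, and without animals 36 to 39 they had 0.08 and 0.16. Groups without overlap made up 0.110% of all genes and 0 of the members.

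**Figure D3:**
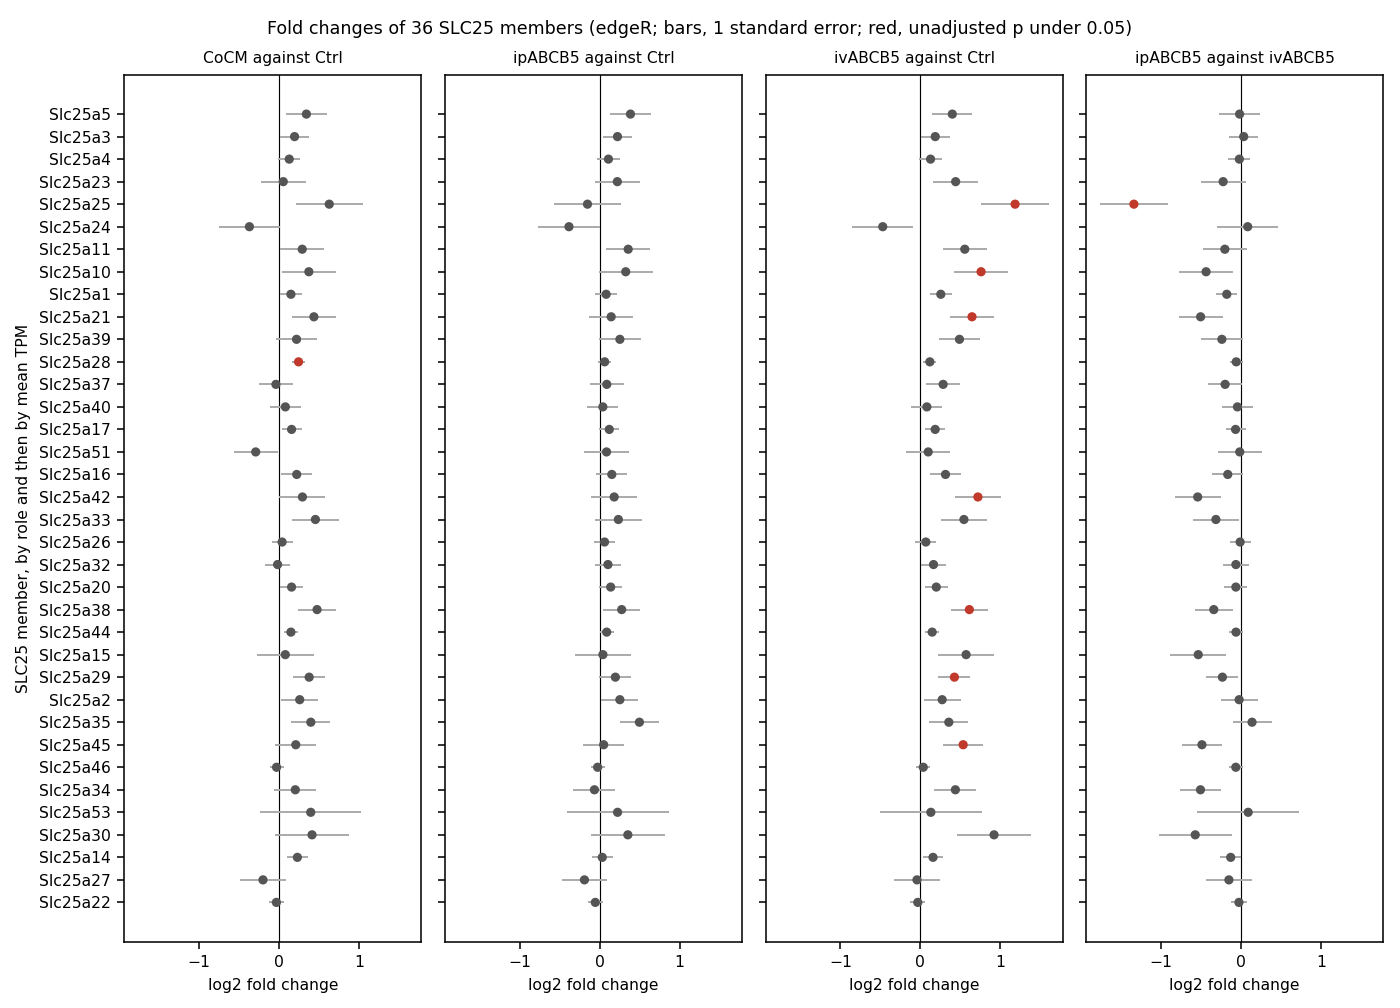
Log2 fold changes of 36 members in the 4 comparisons, from edgeR, with bars of 1 standard error; members are ordered by role and red marks an unadjusted p under 0.05. In ivABCB5 against Ctrl 33 of 36 points lie right of 0 and 7 are red, and Slc25a24 lies left of 0 in all 3 comparisons with Ctrl without passing the test.

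Members that varied widely between animals without passing any test were described by their ranges. Slc25a30 was at 18.33, 32.05 and 62.29 CPM (lowest, median, highest) in Ctrl, at 16.69, 38.54 and 97.87 in CoCM, at 26.05, 41.15 and 67.71 in ipABCB5 and at 23.73, 41.98 and 131.2 in ivABCB5, so every treated median lay inside the Ctrl range. Slc25a24 was at 48.80, 61.57 and 79.22 CPM in Ctrl, and its treated medians were 55.29 in CoCM, 49.33 in ipABCB5 and 53.65 in ivABCB5. Its log2 fold changes were -0.37, -0.38 and -0.47 against Ctrl, with each group's low end set by animals 36 to 39, and without them -0.18, -0.20 and -0.06.

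Slc25a15 was at 8.258, 12.88 and 24.59 CPM in Ctrl, and its treated medians were 13.37, 14.44 and 17.69 CPM in CoCM, ipABCB5 and ivABCB5. Slc25a33, a carrier of pyrimidine nucleotides, was at 9.158, 11.75 and 18.35 CPM in Ctrl with treated medians of 14.76, 13.99 and 15.23 CPM. Both overlapped between all groups. Over all 37 members the log2 fold changes ran from -0.37 to 0.63 in CoCM, from -0.38 to 0.50 in ipABCB5 and from -0.47 to 1.19 in ivABCB5 against Ctrl. Without animals 36 to 39 they ran from -0.51 for Slc25a51 to 0.58 for Slc25a53, from -0.23 for Slc25a25 to 0.44 for Slc25a53 and from -0.16 for Slc25a51 to 0.66 for Slc25a53.

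Group medians of several members lay close together. Slc25a22 had group medians of 21.17, 20.16, 20.43 and 21.46 CPM in Ctrl, CoCM, ipABCB5 and ivABCB5. Slc25a46 had 56.75, 57.36, 57.03 and 58.28 CPM. Slc25a26, which carries S-adenosylmethionine into the matrix, had group medians between 13.42 and 14.30 CPM, and Slc25a20 had 69.24, 74.74, 74.28 and 66.12 CPM. In each case the group medians lay inside the Ctrl range. Animals 36 to 39 could still stand apart, as Slc25a20 was at 95.81 CPM in animal 36, 112.5 in animal 37, 93.39 in animal 38 and 89.67 in animal 39, all above the 55.55 to 79.42 CPM of the other 20.

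The routes of cell injection were compared directly. In ipABCB5 against ivABCB5 1 of 37 members had an unadjusted p under 0.05, where 2.14% of all genes did, 0.689% higher and 1.46% lower in ipABCB5, and groups without overlap made up 0.0626% of all genes and 0 of the members. The member was Slc25a25, with 34.31, 64.69 and 80.43 CPM in ipABCB5 against 80.16, 135.6 and 342.7 CPM in ivABCB5. The groups overlapped by a narrow margin, since the highest ipABCB5 animal, 38, was just above ivABCB5 animals 33 at 80.16 CPM and 42 at 80.31 CPM, and all 6 ipABCB5 animals were below the ivABCB5 mean of 160.4 CPM. In TPM the groups did not overlap for Slc25a25, at 16.47 to 31.4 in ipABCB5 and 38.24 to 132.0 in ivABCB5. The log2 fold change was -1.34 ± 0.43 (SE; edgeR adjusted p = 0.9999, exact permutation p = 0.00649), and -0.84 without animals 36 to 39.

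The next members by p were Slc25a34 at -0.51 ± 0.26, Slc25a45 at -0.49 ± 0.25, Slc25a42 at -0.54 ± 0.29 and Slc25a21 at -0.50 ± 0.27, none of which passed the test. Without animals 36 to 39 they were -0.09, -0.25, -0.08 and 0.09, so Slc25a21 changed sign. In the test for any difference between the 4 groups 2 members, Slc25a25 and Slc25a28, had an unadjusted p under 0.05, where 4.71% of all genes did. Without animals 36 to 39 it was 0 members, for which the share of all genes is not given.

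**Figure D4:**
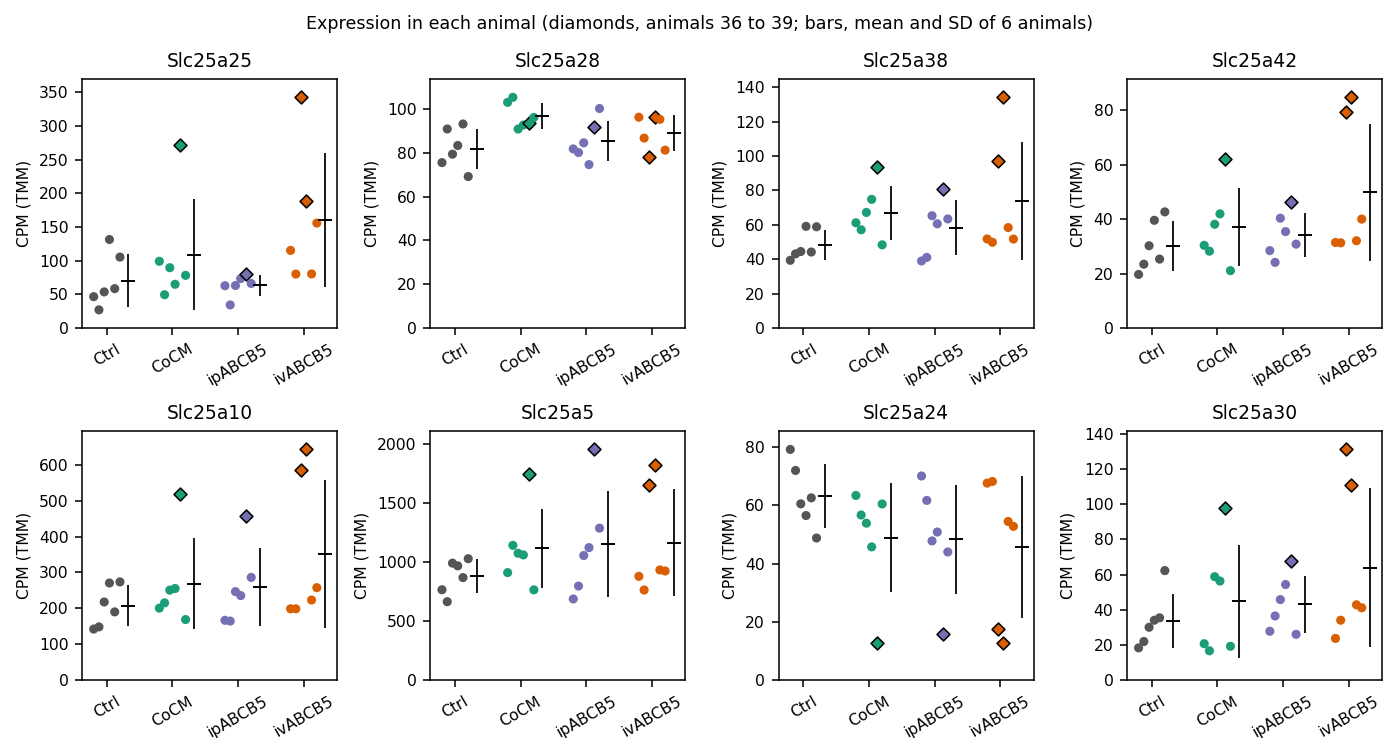
CPM, scaled by TMM factors, of 8 members in each animal by group; diamonds are animals 36 to 39 and bars the mean and SD of 6 animals. The diamonds lie above the circles for Slc25a10, Slc25a5, Slc25a38, Slc25a42 and Slc25a30 and below them for Slc25a24, and all 6 CoCM animals lie above the Ctrl mean for Slc25a28.

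Ratios within pairs of related carriers do not depend on how libraries are scaled to each other. Of 12 pairs, 9 had both members among the 37, and each was tested in the 4 comparisons on log2 ratios of TPM + 0.1 by two-sided exact permutation of animals, which gave 36 tests. The smallest p that 6 animals against 6 allow is 0.00216. After Benjamini-Hochberg adjustment over the 36 tests 0 passed, and 4 had an unadjusted exact p under 0.05.

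Slc25a23 relative to Slc25a25 had the smallest p of the pairs, between the routes. The mean log2 ratio was 2.19 ± 0.47 (SD, n = 6) in ipABCB5 and 1.18 ± 0.49 (SD, n = 6) in ivABCB5, a difference of 1.01 (exact permutation p = 0.00433, adjusted p = 0.156). It was 0.82 without animals 36 to 39 (exact permutation p = 0.0238), and 0.85 to 1.14 when single animals were left out. The difference of Slc25a24 relative to Slc25a25 between the routes was larger, at 1.39, with an exact permutation p of 0.143. Against Ctrl, at 1.94 ± 0.60, ivABCB5 differed in the log2 ratio of Slc25a23 to Slc25a25 by -0.76 (exact permutation p = 0.0455, adjusted p = 0.429), and by -0.63 without animals 36 to 39 (exact permutation p = 0.119).

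Slc25a24 relative to Slc25a25 had a mean log2 ratio of -0.12 ± 1.03 (SD) in Ctrl and -2.01 ± 1.75 (SD) in ivABCB5. The difference was -1.89 (exact permutation p = 0.0476, adjusted p = 0.429) and -0.80 without animals 36 to 39 (exact permutation p = 0.210). As a plain ratio of TPM + 0.1, it was 0.04726 in animal 36, 0.06379 in animal 37, 0.1805 in animal 38 and 0.04336 in animal 39, and between 0.3083 and 2.41 in the 20 others. Slc25a10 relative to Slc25a11 was lower in ipABCB5 than in ivABCB5 by -0.21 on the log2 scale (exact permutation p = 0.0217, adjusted p = 0.390), and by -0.17 without these animals (exact permutation p = 0.0556).

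The adenine nucleotide translocases kept their order. The ratio of Slc25a4 to Slc25a5 had a median of 0.3221 in Ctrl, 0.2926 in CoCM, 0.2854 in ipABCB5 and 0.3065 in ivABCB5. It was 0.2339 in animal 36, 0.2423 in animal 37, 0.2248 in animal 38 and 0.2292 in animal 39, all below the 0.2757 to 0.4428 of the other 20 animals. The ornithine carriers showed the reverse, with a ratio of Slc25a15 to Slc25a2 of 25.32, 18.32, 27.52 and 19.11 in these animals against 3.777 to 16.22 in the others. Neither ratio had an unadjusted exact permutation p under 0.05 in any comparison.

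**Figure D5:**
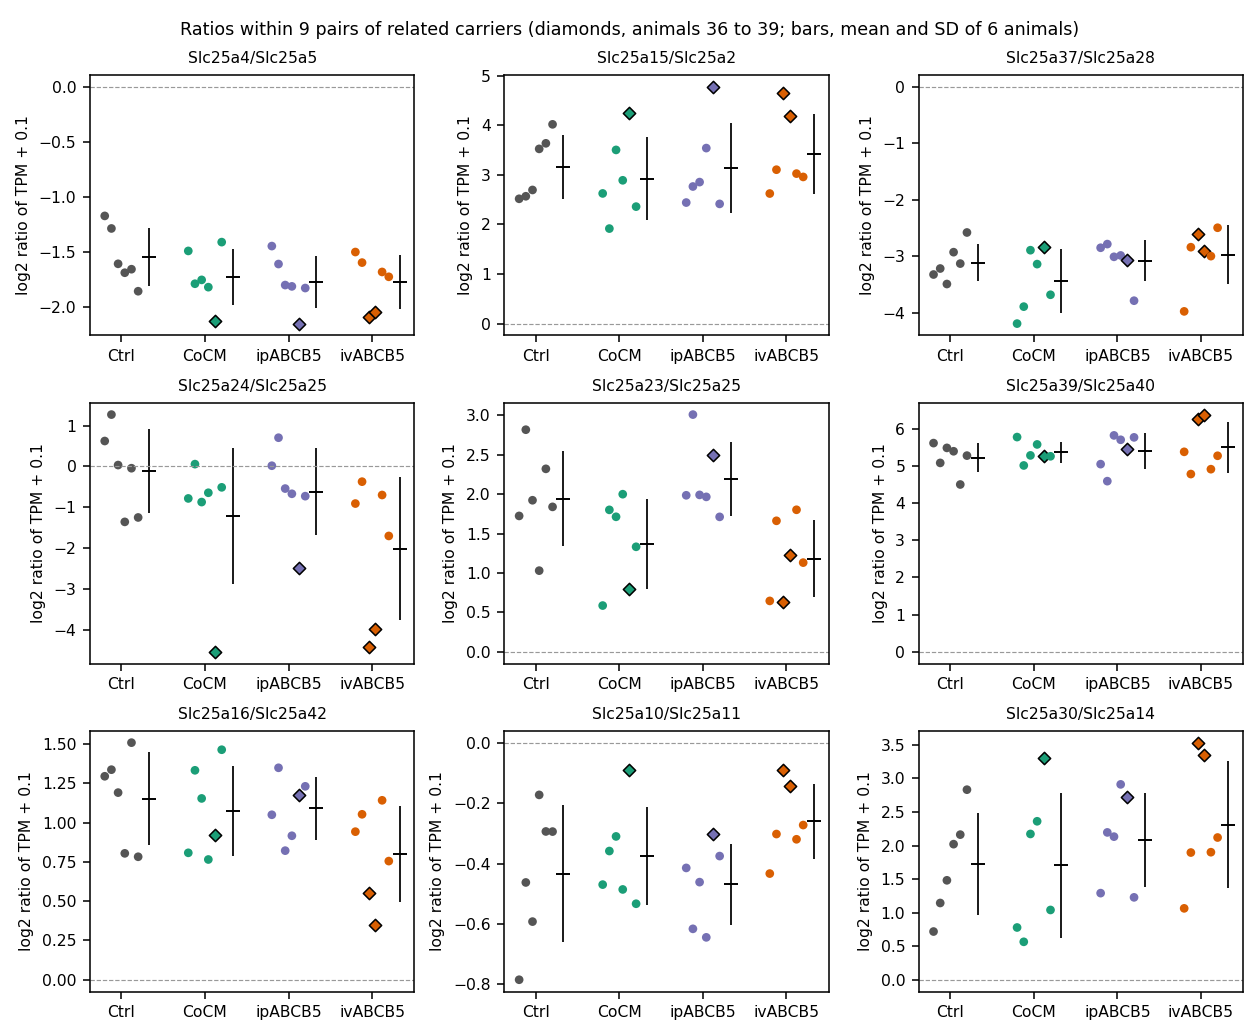
Log2 ratios of TPM + 0.1 within 9 pairs of related members, 1 point per animal by group; diamonds are animals 36 to 39, bars the mean and SD of 6 animals, and the dashed line equal levels. For Slc25a23/Slc25a25 the ivABCB5 mean is 1.18 and the ipABCB5 mean 2.19, and for Slc25a24/Slc25a25 the diamonds lie below every circle.

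No gene of the lists beside the family was called, and their values without animals 36 to 39 were added after the data were seen. None of 3 carriers under other symbols, 18 genes of other mitochondrial membrane transport, 13 of carrier import, 10 regulators and 78 respiratory chain subunits passed an adjusted p of 0.05 in edgeR in any comparison. At an unadjusted p under 0.05 in CoCM against Ctrl, where 5.96% of all genes were higher, 3 of 13 import genes were higher. These were Timm9 at a log2 fold change of 0.40 ± 0.17, Timm10b at 0.38 ± 0.17 and Timm13 at 0.34 ± 0.14, which encode small chaperones of the intermembrane space, and without animals 36 to 39 they had 0.29, 0.30 and 0.32. Of the 18 genes of other membrane transport 1 was higher there, the sideroflexin Sfxn4 at 0.43 ± 0.17, and 0.40 without these animals. Of the regulators 1 of 10 was lower, Gabpa, a subunit of a transcription factor of respiratory genes, at -0.24 ± 0.08, and -0.28 without them. Between the routes 1 of the 18 was higher in ipABCB5, Tspo, the outer membrane translocator protein, at 0.35 ± 0.13, where 0.689% of all genes were higher, and it had 0.12 without these animals.

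Respiratory chain subunits had a median log2 fold change of 0.32 in each of the 3 comparisons with Ctrl, with 77, 76 and 75 of 78 above 0. Without animals 36 to 39 the medians were 0.18 in CoCM, 0.13 in ipABCB5 and -0.04 in ivABCB5, with 73, 76 and 11 of 78 above 0, so the direction in ivABCB5 did not hold without them. With all animals 3, 1 and 0 of the 78 were higher at an unadjusted p under 0.05, against 5.96%, 1.26% and 4.44% of all genes.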

How the data were processed

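RNA of the left kidney from 24 rats was sequenced by the authors on the BGISEQ-500 platform. Per the submitters' processing notes, reads were trimmed with Trim Galore 0.6.4 and quantified with kallisto on build rn6. The deposited values are estimated counts per gene, of which 86.4% to 87.3% per sample are whole, and TPM values per gene that sum to 964191 to 976409 over the listed genes. Genes are listed by Entrez ID, and 17179 of 17334 IDs matched a symbol in RefSeq GRCr8, from which no coordinates were joined to the counts. Total estimated counts per sample were 9304630 to 14125457, and counting error is smallest for high members, whereas Slc25a53 had counts of 0 to 19.

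Estimated counts were rounded, filtered with filterByExpr and tested with edgeR 4.0.16 (quasi-likelihood F test, TMM scaling, all 24 animals in 1 model with the 4 groups, Benjamini-Hochberg adjustment over 12778 genes, threshold 0.05), after a test of the script on simulated data. The study used DESeq2; DESeq2 1.42.0 and limma 3.58.1 served as alternatives. CPM are scaled by TMM factors and log2 CPM use a prior count of 2. Ratios of related carriers used a pseudocount of 0.1 TPM and exact permutation of the 924 divisions of 12 animals. The members and lists were chosen with earlier results of these data known. Named were the 10 highest and 3 lowest members by mean TPM, the 5 with the smallest p in each comparison, the 10 most variable and both members of each related pair; 1 member is counted in the totals but is not reported here by name or plotted. Other alternatives were median-ratio factors, no filter, 10 counts in every sample, only the groups compared, leaving out each animal, and leaving out animals 36 to 39 together. Erythroid, podocyte, endothelial, thick ascending limb, distal convoluted tubule, principal, intercalated, lymphocyte, adipocyte and muscle markers were summed in the same way, and no marker of any list passed an adjusted p of 0.05.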

Additional observations from a re-analysis of the deposited data

Results flagged for a closer look

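Single animals far from the other 5 of their group, by Dixon's ratio above its 95% critical value for 6 animals, were found in 15 of 152 groups of values (37 members and the family sum in 4 groups), where chance alone flags about 7.6. Of the 15, 6 were animal 38 and 4 were animal 39, both of which stood apart on all genes.

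In the ipABCB5 group animal 38 was the highest for Slc25a16 at 6.90 log2 CPM, Slc25a33 at 4.78, Slc25a29 at 4.72 and Slc25a26 at 4.30, and the lowest for Slc25a24 at 3.99 and Slc25a53 at -2.64. In the CoCM group animal 39 was the highest for Slc25a10 at 9.02 log2 CPM and Slc25a44 at 6.45, the lowest for Slc25a24 at 3.69, and the highest for the summed TPM of the members at 5630, where the other CoCM animals had 3259 to 4136.

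The remaining 5 were other animals. In Ctrl, animal 12 was low for Slc25a1 at 6.35 log2 CPM, animal 1 low for Slc25a44 at 5.78 and animal 24 high for Slc25a51 at 6.50. Animal 30 (ipABCB5) was low for Slc25a25 at 5.11, and animal 28 (ivABCB5) low for Slc25a37 at 2.67 log2 CPM.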

How the results depend on the processing

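The count of members called stayed at 0 in all 5 comparisons under every alternative run and with each animal left out. The median fold changes kept their sign, except between the routes without animals 36 to 39, where the median went from -0.13 to 0.01. Named fold changes kept their direction in 228 values with single animals left out and in 132 under the other alternatives, and 1 reversed: Slc25a21 in ipABCB5 against ivABCB5 went to 0.08918 without animals 36 to 39. Leaving out single animals moved the medians between 0.08 and 0.25 in CoCM, 0.04 and 0.15 in ipABCB5, 0.22 and 0.34 in ivABCB5 against Ctrl and -0.18 and -0.06 between the routes, and the counts of members at an unadjusted p under 0.05 between 1 and 2, 0 and 1, 1 and 14, and 1 and 4. Between the routes that count was 4 without animal 38 or 28, 3 without 33, 42 or 43 and 2 without 41. With only the groups compared in the fit it was 4 in CoCM and 4 in ivABCB5. The share of all genes is not given beside these counts, which describe the members only. Ratios at an unadjusted exact permutation p under 0.05 numbered 1 without animals 36 to 39, and 2 to 7 with single animals left out (7 without Ctrl animal 22). No paired analysis was possible because no animal number occurs in more than 1 group. Depth limits Slc25a53, Slc25a27, Slc25a2 and Slc25a21, whose lowest counts were 0, 6, 6 and 31.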
